A study of Mus musculus with 30 samples.

Results

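A set of 10 neutrophil-associated mouse genes, S100a8, S100a9, Stfa1, Stfa2, Stfa2l1, Stfa3, Lcn2, Il1r2, G0s2 and Hdc, was followed across bulk RNA-seq libraries of 10 kinds of subcutaneous tumour. The genes were picked by symbol, and all 10 were found among the 55291 gene symbols measured. The 30 libraries are labelled as CD45+ immune cells infiltrating the tumours, with 3 libraries for each transplanted line. The carcinomas are MC38 and CT26 from colon, EMT6 from mammary gland, LL2 (Lewis) from lung and Renca from kidney, CMS5a is a fibrosarcoma, and B16F1 and B16F10 are sublines of one melanoma. MC38OVA and CT26NYESO1 are MC38 and CT26 given a foreign antigen, ovalbumin and NY-ESO-1. The study asked which cancer types would suit treatment with OK-432, a streptococcal preparation. Tumours were taken at 10 mm in length. The labels mention both BALB/cJ and C57BL/6J hosts, and OK-432 placed in tumours for 24 hours or left out, but tie neither to a library, so the only groups used were the lines. RNA came from digested whole-tumour suspensions according to the protocol, which describes no CD45 selection. Nothing states that the 3 libraries of a line came from separate mice, so every p-value measures the spread between these libraries, which may be technical.

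These genes belong to the equipment of neutrophils, the short-lived phagocytes that the cytokine G-CSF brings out of the bone marrow. S100a8 and S100a9 encode the subunits of calprotectin, a calcium-binding and metal-chelating complex that fills the neutrophil cytosol and can act on the receptors Tlr4 and Ager outside the cell. The Stfa genes encode mouse stefin A proteins, small cytosolic members of the cystatin superfamily that block cysteine cathepsins. Lcn2 encodes lipocalin 2, which captures bacterial siderophores. It is stored in neutrophil granules and is also made by stressed epithelium. Il1r2 encodes a decoy receptor that binds interleukin 1 without signalling, G0s2 an inhibitor of the lipase Pnpla2 (ATGL), and Hdc the enzyme that makes histamine from histidine in mast cells, basophils and some neutrophil-lineage cells.

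The stefin members are close copies of each other, and their first coding bases are shown because they explain how far single levels can be trusted. The stretch starts at the ATG and is given from the GENCODE M21 transcripts on mm10, in the 5′ to 3′ direction. Capitals mark bases that are not the same in all 4 genes, with gaps of the alignment counted as differences.
Stfa1: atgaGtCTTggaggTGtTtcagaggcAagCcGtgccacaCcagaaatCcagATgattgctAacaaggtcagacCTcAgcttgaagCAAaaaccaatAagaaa
Stfa2: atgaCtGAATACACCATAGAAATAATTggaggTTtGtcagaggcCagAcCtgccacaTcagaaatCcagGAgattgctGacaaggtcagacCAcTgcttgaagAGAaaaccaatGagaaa
Stfa2l1: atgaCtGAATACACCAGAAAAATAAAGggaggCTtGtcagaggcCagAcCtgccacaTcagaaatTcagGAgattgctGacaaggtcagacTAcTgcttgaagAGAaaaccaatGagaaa
Stfa3: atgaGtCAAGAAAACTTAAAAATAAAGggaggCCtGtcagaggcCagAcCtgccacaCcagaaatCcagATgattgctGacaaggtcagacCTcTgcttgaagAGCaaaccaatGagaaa

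Over whole coding sequences Stfa2 and Stfa2l1 were identical at 298 of 309 aligned bases (96.4%), while the other pairs shared 77.7 to 83.8%. Cut into stretches of 50 bases, the transcripts of Stfa2 and Stfa2l1 had 62 stretches in common, 14.7% of those of Stfa2 and 16.8% of those of Stfa2l1. Of the stretches of Stfa1, 22.5% recurred in other genes of the cluster, chiefly BC100530 and BC117090, and Stfa3 shared none. Reads from shared stretches can be split between copies, so the single levels of Stfa1, Stfa2 and Stfa2l1 are uncertain, and those of Stfa3 are not subject to this limit at that length. The 4 genes lie within 298.6 kb of chromosome 16 (mm10, GENCODE M21, all protein-coding). Stfa2l1 covers chr16:36156811-36161953 on the plus strand, Stfa1 chr16:36276951-36285373 on the plus strand, Stfa2 chr16:36403992-36408457 on the minus strand and Stfa3 chr16:36450537-36455392 on the minus strand.

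The 150 bases before the RefSeq start (build GRCm38.p6) are shown for Stfa2l1 and Stfa3 because these stefin genes, at the ends of the stretch, were highest in different tumours. Capitals mark the letters TTTAAA.
Stfa2l1, chr16:36156661-36156810, plus strand: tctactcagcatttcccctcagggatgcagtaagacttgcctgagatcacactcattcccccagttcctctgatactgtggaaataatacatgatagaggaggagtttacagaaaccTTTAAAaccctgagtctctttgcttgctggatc
Stfa3, chr16:36455393-36455542, minus strand: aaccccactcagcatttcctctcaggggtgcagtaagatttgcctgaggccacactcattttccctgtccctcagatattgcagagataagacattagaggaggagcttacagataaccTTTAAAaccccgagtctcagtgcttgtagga

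Both windows were alike at 122 of 146 aligned bases (83.6%). TTTAAA, searched on both strands, stood in the windows of all 4 stefin members, 29 to 33 bases before the start, and in none of the other members. Of 32851 RefSeq windows of the same length, 6.75% held it. TATAAA was found in S100a8 alone among the members (7.57% of windows), TTGCNNAA, a C/EBP-type core, in Stfa1 alone (5.46%) and GGAAGT, an ETS-type core, in Il1r2 alone (13.6%). All 10 members had an entry in the RefSeq promoter table, and these matches describe letters only.

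All values below are TPM, which are scaled for gene length and sum to 1000000 transcripts in each library, so levels of different genes can be set side by side. Mitochondrial transcripts took 9.17 to 39.0% of a library and haemoglobin transcripts 0.0222 to 7.70%, the latter highest in B16F10 replicate 2. Ptprc, which encodes CD45, averaged 154 ± 64.0 TPM (SD, n = 3) in MC38OVA, 52.8 ± 16.9 in EMT6, 22.4 ± 11.4 in Renca, 10.1 ± 6.26 in B16F1 and 5.39 ± 2.83 in B16F10. Keratin transcripts of epithelial cells were abundant in some libraries labelled as immune cells, with Krt8 at 926 ± 219 TPM in Renca, 610 ± 36.9 in EMT6 and 109 in LL2. The mean log2(TPM + 1) of 10 pan-leukocyte genes, used below as a leukocyte score, ran from 3.47 to 7.62 over the libraries. It was 6.47 to 7.62 in MC38OVA, 6.13 to 6.58 in EMT6, 5.02 to 5.55 in Renca, 3.51 to 4.90 in B16F1 and 3.47 to 4.77 in B16F10. In bulk RNA, fewer cells of a type and less RNA per cell cannot be told apart.

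By limma on log2(TPM + 1), each line was set against the average of its 9 counterparts. Calls needed a log2 fold change of 1 or more and a p under 0.05 after Benjamini-Hochberg adjustment over all 17944 tested genes. Of the 10 members 9 were tested, because Stfa1 reached 1 TPM in no library, whereas 3 were needed. EMT6 and the MC38 lines held the high levels of the calprotectin genes and Hdc, B16F1 the low ones, and Renca was high for Lcn2 and Stfa3 alone. In EMT6 7 of the 9 tested members were called higher, where 10.2% of all tested genes were. Stfa2 passed the filter only through its EMT6 libraries, so its call adds nothing to that count. Without Stfa2, the median log2 fold change of the other 8 members in EMT6 was 2.78, against 0.04 over all genes, and medians below are likewise without it. In MC38 6 of 9 were called higher (8.24% of all genes), with a median of 1.45 against 0.08. In MC38OVA the same 6 were called higher (10.2%), with a median of 1.35 against 0.05. In Renca 2 were called higher (12.4%) and 2 lower (10.5%). In B16F1 6 of 9 were called lower (13.2%), with a median of -2.54 against -0.18, and in B16F10 5 of 9 (23.2%), with -1.50 against -0.48. CT26NYESO1 had 3 lower (5.71%) and CMS5a 1 (4.49%). No member was called in LL2 or CT26, where 14.5% and 13.2% of all genes were called in either direction by limma, and 2 members in each line had an unadjusted p under 0.05. The F test over the 10 line means called 9 of 9 tested members, as it did 85.5% of all genes.

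**Figure D1:**
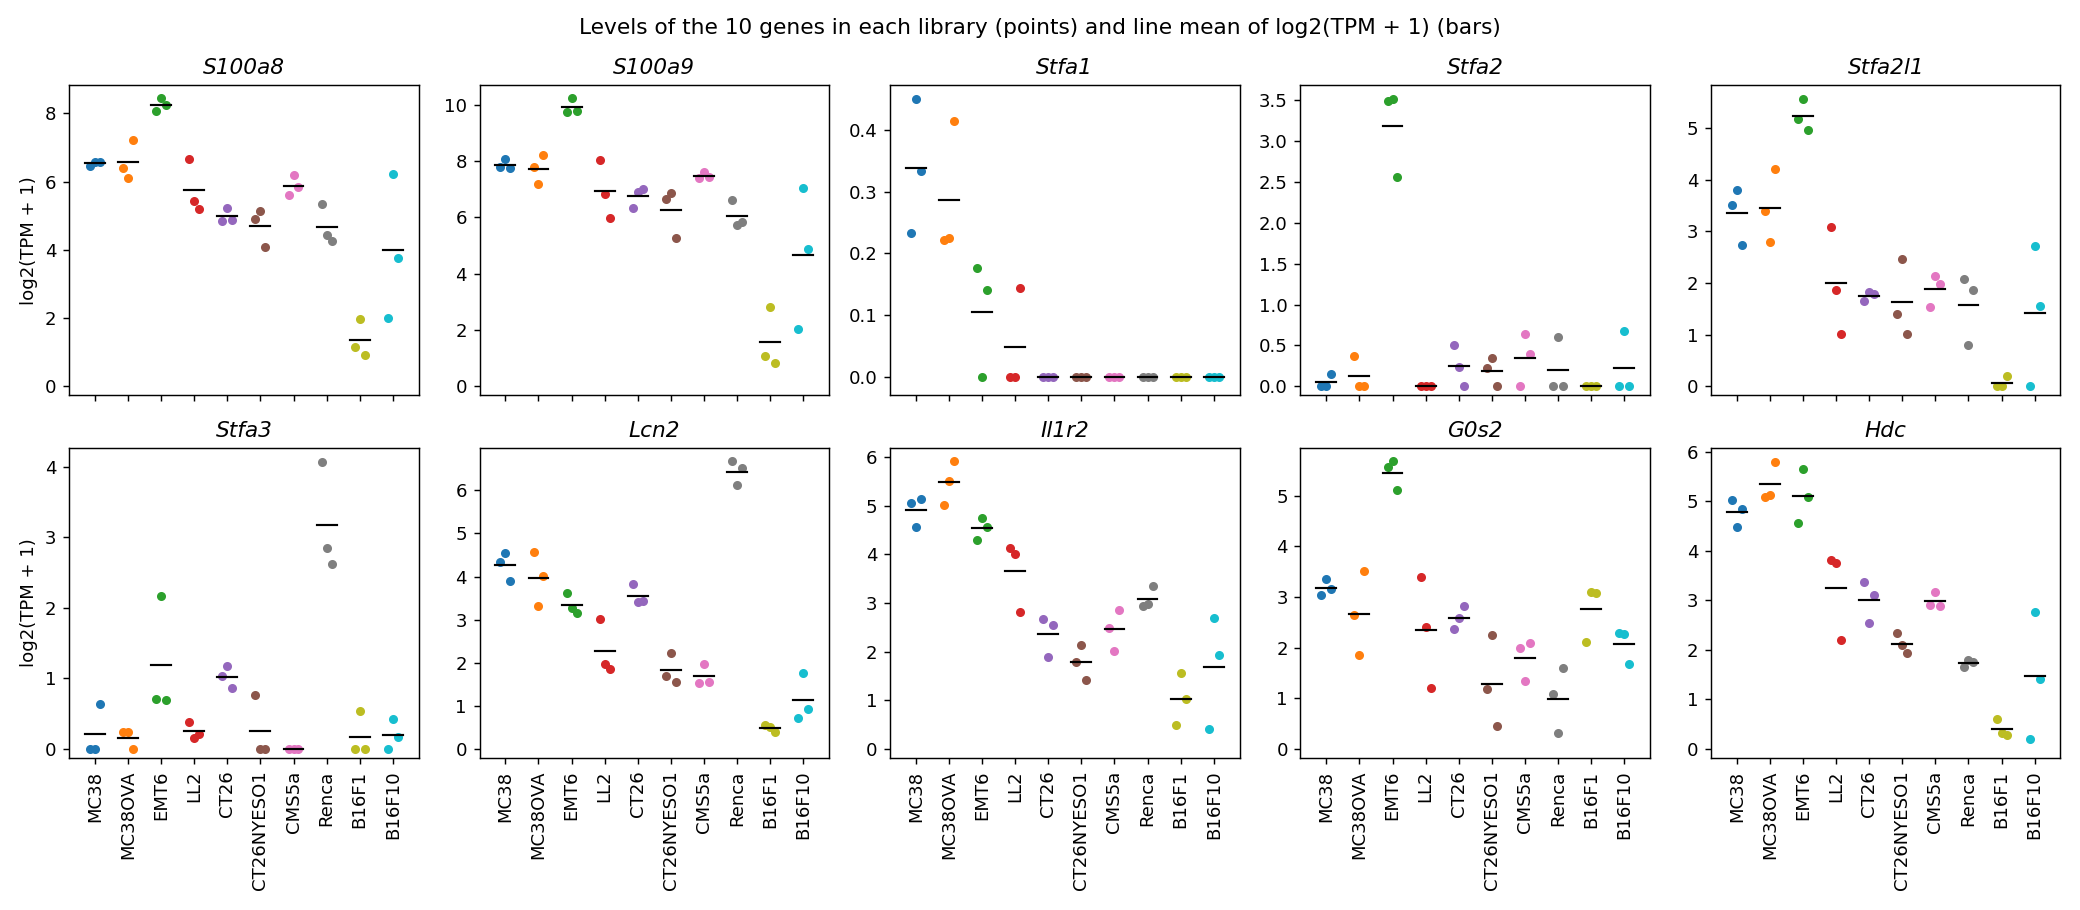
Level of each of the 10 member genes as log2(TPM + 1), each panel with its own scale, with 1 point per library and a bar at the mean of the 3 libraries of a line. EMT6 stands above the other lines for S100a8, S100a9, Stfa2, Stfa2l1 and G0s2, Renca for Lcn2 and Stfa3, and B16F1 has the lowest line mean for S100a8, S100a9, Lcn2 and Hdc.

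**Figure D2:**
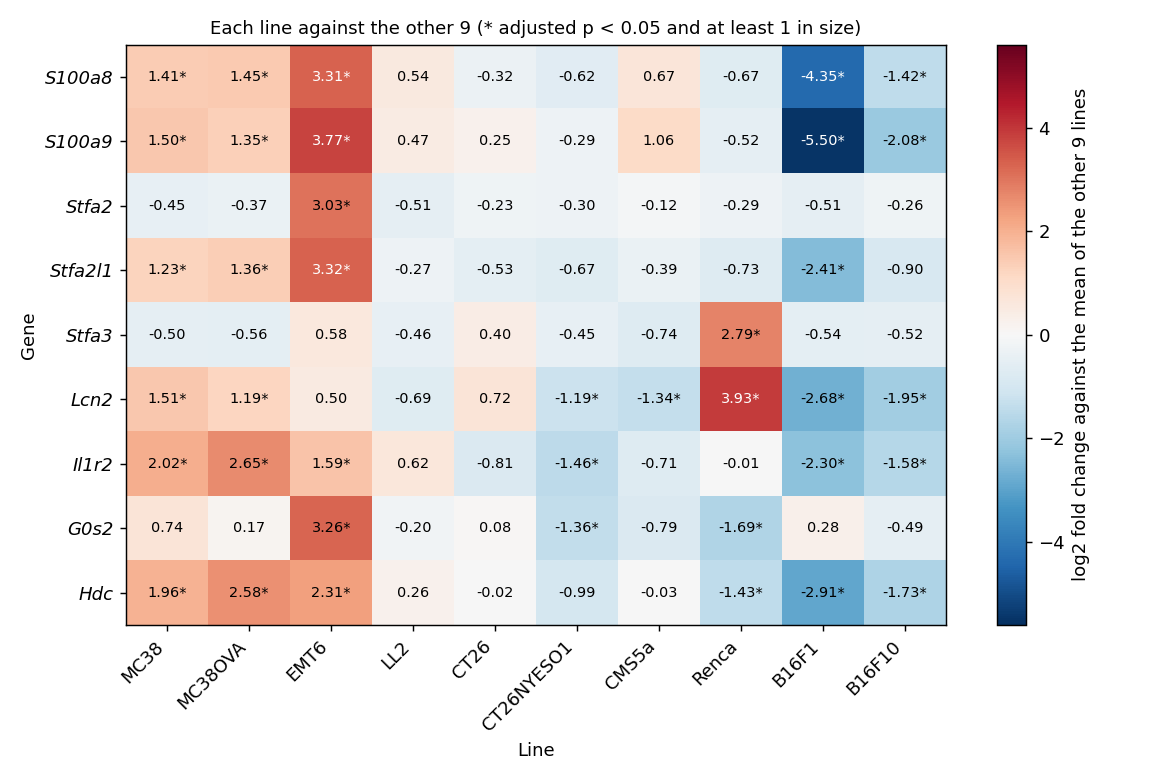
Log2 fold change of the 9 tested members in each line, taken against the average of its 9 counterparts, as a heat map with asterisks on the calls. The EMT6 column holds 7 calls higher, the B16F1 column 6 lower, and Renca is split between 2 higher and 2 lower.

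The calprotectin genes S100a8 (chr3:90668978-90670035, plus strand) and S100a9 (chr3:90692632-90695721, minus strand) were among the most abundant transcripts of the EMT6 libraries and nearly missing from B16F1. S100a9 was at 861, 1201 and 866 TPM in EMT6 replicates 1, 2 and 3, at 222, 266 and 214 in MC38 and at 220.3, 146 and 295 in MC38OVA. All 3 EMT6 libraries lay above every other library, and the MC38 and MC38OVA ranges overlapped. In EMT6 it ranked between 119 and 178 among all genes by level, and in B16F1 between 9129 and 14453. S100a9 was at 169, 193 and 170 TPM in CMS5a, 261, 113 and 62.1 in LL2, 80.3, 117 and 129 in CT26 and 99.2, 116 and 37.2 in CT26NYESO1. Renca had 96.7, 51.8 and 56.2. From MC38 down to B16F1 each line's range overlapped that of the next line in the order of means, which was MC38, MC38OVA, CMS5a, LL2, CT26, CT26NYESO1, Renca, B16F10 and B16F1.

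B16F1 held 1.10, 6.00 and 0.774 TPM of S100a9, and B16F10 3.05, 132 and 28.3. The B16F10 libraries thus spread over the range from the B16F1 level to that of LL2, and S100a8, with 3.03, 73.6 and 12.5 TPM, spread in the same order. Their haemoglobin shares were 1.38, 7.70 and 3.55%, also highest in replicate 2. The part of blood in this spread was not tested. Against the other lines S100a9 was higher in EMT6 by 3.77 ± 0.54 (log2, SE, limma adjusted p = 2.03e-06) and lower in B16F1, with a value of -5.5 (adjusted p = 2.01e-09).

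S100a8 was at 267, 351 and 302 TPM in EMT6, at 87.9, 94.9 and 94.4 in MC38 and at 84.2, 67.5 and 149 in MC38OVA. The EMT6 mean of 307 ± 42.4 was 3.06-fold that of MC38OVA, the next line, and the ranges did not overlap. LL2 (59.1 ± 35.4), CMS5a (58.8 ± 12.6), CT26 (31.0 ± 4.70), B16F10 (29.7 ± 38.3), CT26NYESO1 (26.5 ± 9.50) and Renca (26.1 ± 12) followed, and B16F1 at 1.69 ± 1.09 lay below the range of Renca. The log2 fold change was 3.31 ± 0.44 in EMT6 (limma adjusted p = 5.57e-07) and -4.35 in B16F1 (adjusted p = 3.21e-09). The S100a9 to S100a8 ratio was 2.87 to 3.42 in EMT6 and 0.857 to 2.04 in B16F1, where S100a8 was between 0.904 and 2.94 TPM.

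In MC38 both genes were called higher, S100a8 by 1.41 (limma adjusted p = 0.0111) and S100a9 by 1.5 (adjusted p = 0.0272), and likewise in MC38OVA, by 1.45 (adjusted p = 0.00912) and 1.35 (adjusted p = 0.0482). These 4 calls rest on the B16 lines among the comparison lines: without B16F1 and B16F10 the values fell to 0.71 and 0.56 in MC38 and 0.75 and 0.41 in MC38OVA, none of them called. S100a9 in MC38 was also not called after leaving out any 1 of its 3 libraries, with limma adjusted p up to 0.112, nor S100a8 without MC38 replicate 2 (adjusted p = 0.0511). In MC38OVA, S100a8 was not called without MC38OVA replicate 3 (1.13, limma adjusted p = 0.108), the highest of the 3 in S100a8, and S100a9 lost its call, which lay close to the threshold, on leaving out any 1 of the MC38OVA libraries, with adjusted p up to 0.216. S100a9 also lost both calls under median-ratio scaling (limma adjusted p = 0.0783 in MC38 and 0.102 in MC38OVA) and with no filter (0.0741 and 0.115). Its MC38OVA call was further lost with a pseudocount of 0.1 (0.0564), without mitochondrial and haemoglobin genes (0.0594) and on leaving out many single libraries of other lines. In B16F10, S100a8 (-1.42) and S100a9 (-2.08) were called lower, and neither was without B16F10 replicate 1 (-0.43 and -0.76), nor S100a8 under median-ratio scaling of the libraries (-0.87). Of the calprotectin receptor genes Tlr4 and Ager, 0 of 2 tested were called in EMT6 (Tlr4 at 18.6 TPM), with log2 fold changes of 0.30 and -0.19 and limma unadjusted p of 0.242 and 0.306. Tlr4 fell in B16F1 by 1.68, to 4.87 TPM, and was higher in B16F10 than in B16F1 by 1.42 (limma adjusted p = 0.00137), as the calprotectin genes were. Ager rose in Renca by 1.32 (log2), to 5.46 TPM, and fell by 1.36 in B16F10.

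Among the stefin members, Stfa2l1 and Stfa2 peaked in EMT6 and Stfa3 in Renca. Stfa2l1 was at 34.9, 45.9 and 30.1 TPM in EMT6, 10.4, 12.9 and 5.62 in MC38 and 9.45, 5.89 and 17.4 in MC38OVA. The EMT6 mean of 37.0 ± 8.10 was 3.39-fold that of MC38OVA, with no overlap. The remaining lines ran from 7.51, 2.66 and 1.02 TPM in LL2 down to Renca with 3.21, 0.743 and 2.62, all overlapping their neighbours, and B16F1 was listed at 0 in 2 libraries and 0.145 in the other. Stfa2l1 rose in EMT6 by 3.32 ± 0.39 (log2, limma adjusted p = 6.34e-08) and in the MC38 lines by 1.23 (adjusted p = 0.0118) and 1.36 (adjusted p = 0.00587), and it fell by 2.41 in B16F1 (adjusted p = 7.37e-06). Both MC38 calls were lost without the B16 lines, at 0.84 and 0.97, the MC38 call also without MC38 replicate 1 (1.15, limma adjusted p = 0.0679) or replicate 2 (1.0, adjusted p = 0.105), and the MC38OVA call without MC38OVA replicate 3 (0.99).

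Stfa2, the near-identical copy of Stfa2l1, was at 10.3, 10.4 and 4.88 TPM in EMT6 and at most 0.598 elsewhere, listed at 0 in 17 libraries. Its EMT6 mean of 8.53 ± 3.16 was 29.2-fold the 0.292 of CMS5a, the next line, whereas Stfa2l1 was also present in the MC38 lines. The fitted value was 3.03 ± 0.16, and since the gene was tested only by virtue of the EMT6 libraries, this is a description. Given the shared stretches, the part of Stfa2l1 reads in the Stfa2 level was not tested. Stfa1 was listed at 0 in 21 libraries. The others were all MC38 (0.175, 0.366 and 0.260 TPM), all MC38OVA (0.166, 0.169 and 0.332), 2 of EMT6 (0.130 and 0.102) and 1 of LL2 (0.105).

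Stfa3 was at 15.8, 6.20 and 5.17 TPM in Renca, 0.630, 3.51 and 0.615 in EMT6 and 1.05, 1.27 and 0.813 in CT26. Every Renca library lay above every other, with a mean of 9.05 ± 5.85 that was 5.71-fold that of EMT6. The other lines had at most 0.709 TPM in any library, and CMS5a was listed at 0 throughout. Stfa3 rose in Renca by 2.79 ± 0.24 (log2, limma adjusted p = 1.05e-10) and had 0.58 in EMT6, below the fold needed. Thus Renca, where Stfa2l1 averaged 2.19 ± 1.29 TPM, held more Stfa3 than Stfa2l1 in each of its libraries, and the reverse was true in EMT6.

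Lcn2 (chr2:32384633-32388252, minus strand) was highest in Renca, as Stfa3 was, and unlike the calprotectin genes. It was at 101, 68.3 and 90.1 TPM there, 19.2, 22.4 and 14 in MC38 and 22.6, 9.05 and 15 in MC38OVA. The Renca mean of 86.5 ± 16.7 was 4.68-fold that of MC38, with no overlap. CT26 (13.1, 9.59 and 9.72) and EMT6 (11.2, 8.69 and 7.95) overlapped with MC38OVA, and below them lay LL2 (7.06, 2.93 and 2.61), CT26NYESO1 (2.23, 3.69 and 1.93), CMS5a (1.90, 2.90 and 1.96) and B16F10 (0.643, 2.42 and 0.902). B16F1 was lowest at 0.483, 0.429 and 0.307, with no overlap with B16F10. EMT6, the line with most S100a9, thus stood in the fifth place for Lcn2, and its log2 fold change of 0.50 was not called (limma adjusted p = 0.0788).

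Lcn2 rose in Renca by 3.93 ± 0.23 (log2, limma adjusted p = 4.56e-14), by 1.51 in MC38 (adjusted p = 6.6e-06) and 1.19 in MC38OVA (adjusted p = 0.00015), and fell by 2.68 in B16F1, 1.95 in B16F10, 1.34 in CMS5a and 1.19 in CT26NYESO1. Without the B16 lines the MC38 and MC38OVA values were 0.96 and 0.62, and the MC38OVA value was 0.89 without its replicate 1, none of them called. Per unit of S100a9, Lcn2 was at 1.05 to 1.60 in the Renca libraries and 0.00724 to 0.0130 in those of EMT6. S100a8 (-0.67, limma adjusted p = 0.192) and S100a9 (-0.52, adjusted p = 0.415) were not called in Renca, and Il1r2 had -0.01.

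The simple epithelium markers Krt8, Krt18, Epcam and Cdh1 were also highest in Renca, whereas Krt19 was highest in EMT6 (2.46 TPM against 0.984 in Renca). Of 5 such genes tested, 4 were called higher in Renca and 3 in EMT6, with Krt18 at 576 TPM, Cdh1 at 67.3 and Epcam at 9.97 in Renca. The summed level of the 5 was 1323 to 2023 TPM in Renca, 622 to 712 in EMT6, 177 to 321 in LL2 and at most 15.5 in the other lines. EMT6 had the next highest epithelial sum and Lcn2 between 7.95 and 11.2 TPM, below MC38, where the sum was 2.22 to 4.25. The part of epithelial or tumour cells in the Lcn2 and Stfa3 levels was not tested. Of the genes tied to lipocalin 2, Slc22a17, a reported receptor, was at 1.08 TPM in Renca (0.65, not called), and Nfkbiz, which encodes a nuclear regulator of Lcn2, rose in EMT6 by 1.39 (log2), to 44.2 ± 12.3 TPM and was at 11.9 in Renca (-0.62, not called). That made 1 of 2 tested genes of this list higher in EMT6 and 0 of 2 in Renca.

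**Figure D3:**
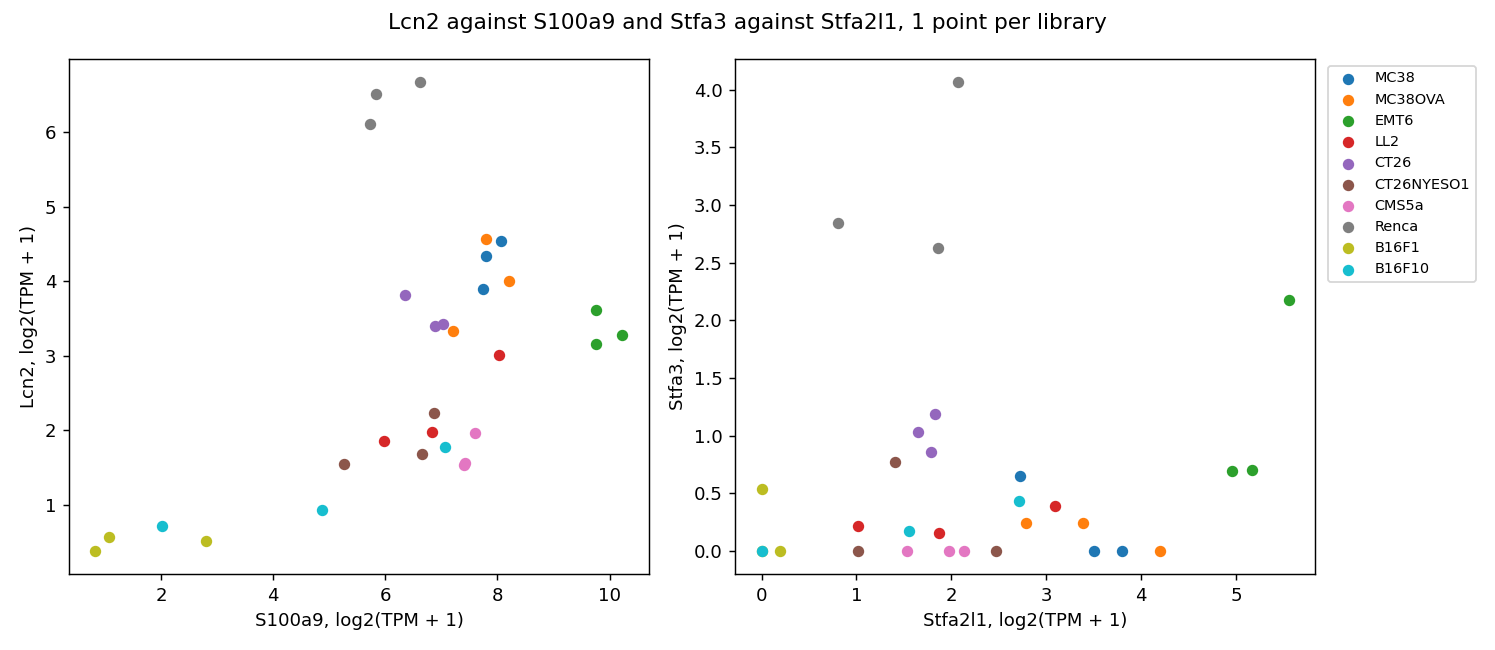
Lcn2 against S100a9 (left) and Stfa3 against Stfa2l1 (right) as log2(TPM + 1), 1 point per library and coloured by line. The 3 Renca libraries lie apart at the top of both panels, with Lcn2 of 68.3 to 101 TPM and Stfa3 of 5.17 to 15.8 TPM, and the EMT6 libraries lie at the right.

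Il1r2 (chr1:40074079-40125231, plus strand) was high in both MC38 lines and EMT6. It was at 32.3, 22.7 and 34.0 TPM in MC38, 31.4, 44.5 and 59.5 in MC38OVA and 18.5, 26.0 and 22.6 in EMT6. Each of these lines overlapped the next in the order MC38OVA (45.1 ± 14), MC38 (29.7 ± 6.10) and EMT6 (22.4 ± 3.73), and all 3 lay above LL2 (16.6, 15.2 and 6.07). Renca (6.64, 6.87 and 9.22), CMS5a, CT26, B16F10, CT26NYESO1 and B16F1 followed, B16F1 with 0.402, 1.95 and 1.05. Il1r2 rose in MC38OVA by 2.65 ± 0.31 (log2, limma adjusted p = 7.96e-08), in MC38 by 2.02 (adjusted p = 6.13e-06) and in EMT6 by 1.59 ± 0.31 (adjusted p = 0.000116). It fell by 2.30 in B16F1, 1.58 in B16F10 and 1.46 in CT26NYESO1, and the B16F10 value was -0.95, short of the threshold, without B16F10 replicate 1. Within the gene body the annotation also places Gm16894 on the opposite strand and Gm37347 on the same strand, which reached 1.003 and 0.371 TPM at most.

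A ligand that Il1r2 binds was called higher in the same 3 lines, in another order. Il1b, which encodes interleukin 1 beta, was at 291 ± 58.7 TPM in EMT6 (2.84, called higher), 230.1 ± 74.5 in MC38OVA (2.42), 104 in MC38 (1.13) and 3.89 in B16F1 (-3.74, called lower). Il1rn, which encodes the receptor antagonist, rose in MC38OVA by 2.60 (log2), to 124 ± 16.2 TPM and was at 73.5 in MC38 and 73.4 in EMT6. The signalling receptor genes were high elsewhere, with Il1r1 at 78.2 TPM and its partner Il1rap at 31.7 in LL2, whereas MC38OVA had 8.31 of Il1r1. Of the 5 tested genes of this list 2 were called higher in EMT6.

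G0s2 (chr1:193272161-193273217, minus strand) had the widest gap between EMT6 and the next line, as a ratio of means, among the 6 members above 0 TPM in all 30 libraries. It was at 46.5, 50.2 and 33.5 TPM in EMT6, 7.28, 9.19 and 7.94 in MC38 and 3.31, 7.58 and 7.49 in B16F1. All EMT6 libraries lay above every other library, and the EMT6 mean of 43.4 ± 8.81 was 5.33-fold that of MC38. The rest overlapped in turn, from MC38OVA (5.24, 2.64 and 10.4) over CT26 (4.18, 5.003 and 6.04), LL2 (9.56, 4.33 and 1.31), B16F10 (3.86, 3.81 and 2.21), CMS5a (2.96, 1.52 and 3.27) and CT26NYESO1 (1.26, 3.74 and 0.366) to Renca (1.12, 0.243 and 2.02).

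B16F1 stood in the third place for G0s2 and in the last for S100a9, and its G0s2 value was 0.28 (limma adjusted p = 0.516). G0s2 rose in EMT6 by 3.26 ± 0.35 (log2, limma adjusted p = 1.14e-08) and fell by 1.69 in Renca (adjusted p = 0.000156) and by 1.36 in CT26NYESO1 (adjusted p = 0.00221), the latter not called without CT26NYESO1 replicate 3 (-0.94). The gene lies within an intron of Lamb3, on the opposite strand, with 0 bases of Lamb3 exon inside it. Lamb3 was at 0.576 to 0.747 TPM in EMT6 and highest in Renca, at 1.45 to 2.65, so its levels were ordered differently.

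The lipase that G0s2 inhibits was not high with it. Pnpla2 was at 15.8 ± 0.968 TPM in EMT6 (-0.61, not called), and its cofactor gene Abhd5 at 21.6 and hormone-sensitive lipase Lipe at 5.01. Of 4 tested genes of lipid breakdown and storage 0 were called in EMT6, and 1 was in Renca, where Plin2, which coats lipid droplets, rose by 2.08 (log2), to 593 ± 20.8 TPM. Fat cells also express G0s2. Of the adipocyte genes Adipoq, Plin1, Lep and Cidec, none reached 1 TPM in any library, with highest values of 0.516, 0.445, 0.368 and 0.942. Fabp4, which macrophages and vessels express too, was the only 1 of these 5 genes tested, and it fell in EMT6 by 1.96 (log2), to 5.38 TPM. The part of fat cells in the G0s2 level was not tested.

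Hdc (chr2:126593667-126619299, minus strand) was shared between the MC38 lines and EMT6. It was at 31.3, 21.2 and 27.8 TPM in MC38, 33.1, 33.9 and 54.7 in MC38OVA and 22.5, 48.8 and 33.1 in EMT6. The EMT6 range overlapped those of both MC38 lines, which did not overlap each other, and all 3 lines lay above LL2 (12.99, 12.4 and 3.58), CT26 (9.31, 4.84 and 7.57) and CMS5a (6.52, 7.95 and 6.43). Lower still were CT26NYESO1 (4.10, 3.29 and 2.80), B16F10 (0.156, 5.79 and 1.67) and Renca (2.13, 2.48 and 2.38), and B16F1 had the lowest mean with 0.526, 0.250 and 0.210, overlapping B16F10 but not Renca. Hdc rose by 2.58 ± 0.32 in MC38OVA (log2, limma adjusted p = 2.16e-07), 2.31 ± 0.32 in EMT6 (adjusted p = 1.06e-06) and 1.96 in MC38 (adjusted p = 1.59e-05). It fell by 2.91 in B16F1, 1.73 in B16F10 and 1.43 in Renca. Per unit of S100a9, Hdc was 0.150 to 0.232 in MC38OVA and 0.0262 to 0.0407 in EMT6.

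Mast cells and basophils are textbook sources of histamine, and most of their markers went a different way from Hdc in MC38 and CT26. Of 10 such genes tested, 7 were called higher in CT26, 4 in EMT6 and 0 in the MC38 lines, where 6 were lower in MC38 and 1 in MC38OVA. Their summed level was 107 to 446 TPM in CT26, 110 to 150 in CT26NYESO1, 79.5 to 153 in CMS5a, 19.99 to 44.7 in MC38OVA, 8.34 to 13.8 in MC38 and 2.72 to 4.01 in Renca. Tpsab1, a mast cell tryptase gene, was at 90.1 TPM in CT26 and 0.0746 in MC38 (called lower, -2.41), and the mast cell protease genes Tpsb2, Cma1 and Mcpt4 were at 44.0, 31.5 and 26.4 TPM in CT26. Not every gene of the list did so. The basophil protease gene Mcpt8 was at 1.94 TPM in MC38 (0.71) and 0.965 in CT26 (0.03), and Kit at 2.82 (0.47) and 2.20 (0.13), none of them called. In EMT6 the sum was 21.8, 292 and 101 TPM, and Hdc stood in the same order of libraries at 22.5, 48.8 and 33.1. The part of mast cells in the EMT6 level of Hdc was not tested. Of 3 tested genes that store, degrade or sense histamine, 0 were called in EMT6. Hrh2, which encodes a histamine receptor, rose in MC38OVA by 2.41 (log2), to 11.7 ± 5.40 TPM, and in MC38 by 1.07, to 4.31, while Slc18a2, which loads histamine into granules, was at 0.387 and 0.400.

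**Figure D4:**
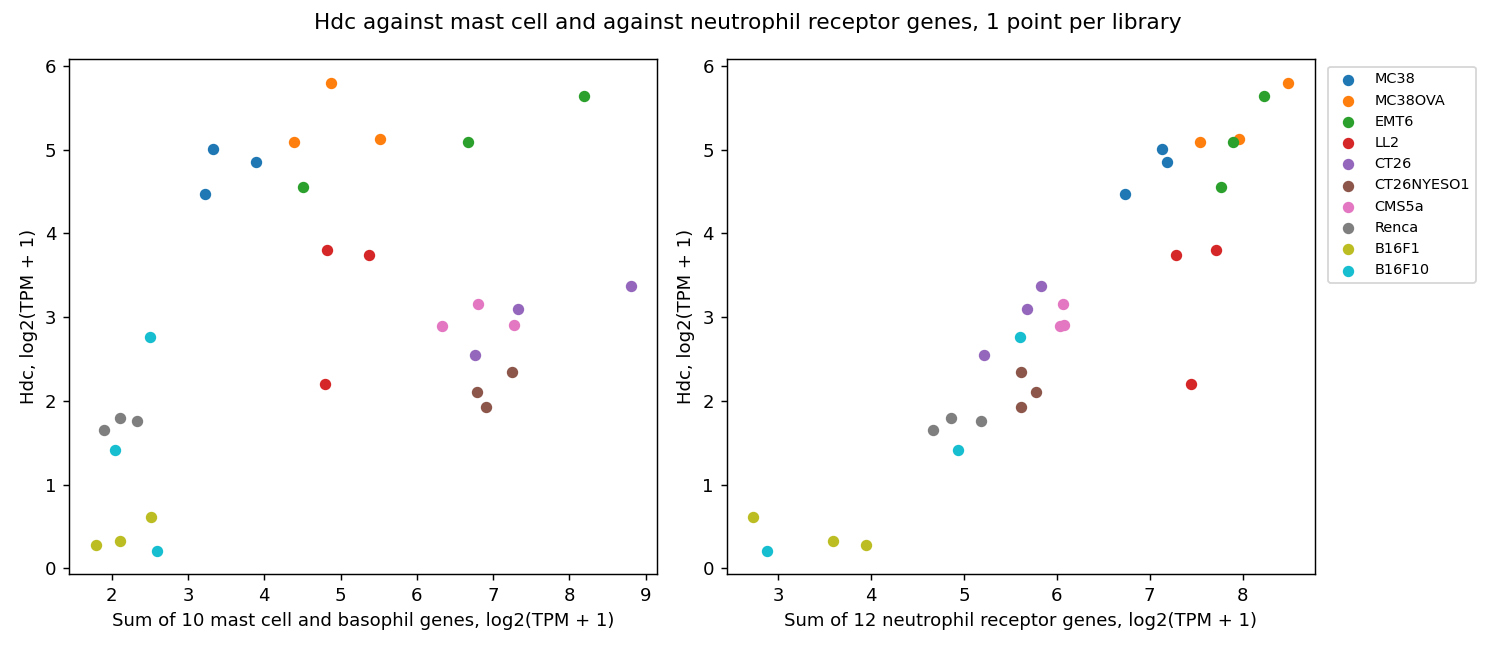
Hdc against the summed TPM of 10 mast cell and basophil genes (left) and of 12 neutrophil receptor genes (right), all as log2(TPM + 1), 1 point per library. CT26 has mast cell sums of 107 to 446 TPM with Hdc of 4.84 to 9.31, and MC38 sums of 8.34 to 13.8 with Hdc of 21.2 to 31.3.

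Other neutrophil genes split by class. Several granule genes stayed under 1 TPM in every library, among them Mpo, Elane and Ms4a3 of the primary granules, with highest values of 0.0977, 0.279 and 0.0439, and Ltf, Camp and Ngp of the later granules, with 0.502, 0.271 and 0.862. Others of the same classes did not, such as Prtn3, at up to 14.4 TPM, and Mmp8, which averaged 12.9 in MC38OVA. Ly6g, the surface marker used to gate neutrophils, reached 1.55 in 1 MC38 library (mean of 0.697 ± 0.737) and was at 0.147 to 0.326 in EMT6. Of the 10 members only Lcn2 encodes a classical granule protein, so the set is called neutrophil-associated here. Surface receptors were present: of 10 tested, 8 were called higher in EMT6, 8 in MC38OVA and 4 in MC38, and 8 were lower in B16F1 and 5 each in B16F10 and Renca. In LL2, where no member was called, Clec4d (2.28), Trem1 (2.07), Clec4e (1.76) and Fpr1 (1.14) were also called higher, and no receptor lower. Macrophage and monocyte genes called higher in LL2 included Csf1r (1.58), C1qb (1.19), C1qc (1.09), Ccr2 (1.98) and Chil3 (2.47). C1qa (0.79), Ly6c2 (0.90) and Ms4a4c (0.86) were not called there. The part of macrophages and monocytes in the receptor levels was not tested.

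Clec4d, a C-type lectin receptor gene, was at 92.3 ± 7.82 TPM in EMT6 and 95.6 ± 32.2 in MC38OVA against 5.82 in Renca. Csf3r, the receptor of G-CSF, was at 38.6 in EMT6 and 47.1 in MC38OVA, Fpr2, a formyl peptide receptor, at 27.1 and 43.0, and Clec4e, which senses microbial glycolipids, at 31.6 and 29.5. The ranges of MC38OVA and EMT6 overlapped for each of these 4 receptors and for Cxcr2 and Trem3, whereas those of S100a9 did not. Other receptors did not overlap either. EMT6 lay above MC38OVA for Trem1 (means of 27.0 against 10.6 TPM), Mrgpra2a (2.26 against 1.06) and Mrgpra2b (3.26 against 1.74). It lay below MC38OVA for Fpr1 (4.40 against 11.1). The receptor sum of 12 genes was 216 to 299 TPM in EMT6 and 185 to 358 in MC38OVA, ranges that overlapped. It was 155 to 209 in LL2, 105 to 145 in MC38 and 24.5 to 35.4 in Renca.

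Among the 7 tested genes listed with the later granules, 6 were called higher in MC38OVA, 3 in MC38 and 3 in EMT6, and 1 was lower in EMT6. Olfm4 passed the filter only through its EMT6 libraries, so it adds nothing to the EMT6 count. The gene lower in EMT6 was Padi4, which encodes the citrullinating enzyme of neutrophil extracellular traps and no granule protein. It was at 86.1 ± 16.4 TPM in MC38 (4.26, called higher), 79.5 ± 9.61 in MC38OVA and 1.74 in EMT6 (-1.27). Mmp9, a gelatinase gene, was at 45.6 ± 42.9 TPM in EMT6, Hp, for haptoglobin, at 39.8 in MC38OVA, and Pglyrp1, for a peptidoglycan-binding protein, at 18.7 in MC38OVA and 4.27 in EMT6. In Renca 0 of 7 were called by limma. Of the primary granule genes 2 were tested, Prtn3 and Ctsg. Prtn3, for proteinase 3, averaged 11.7 ± 3.28 TPM in MC38, 9.76 ± 4.05 in Renca, 6.83 in MC38OVA and 0.422 in EMT6, and Ctsg, for cathepsin G, at most 1.95, in CT26. One of these 2 was called higher in MC38, MC38OVA and Renca, and 0 in EMT6.

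Of 8 other genes known from neutrophils, 5 rose in EMT6, 6 in MC38 and 4 in MC38OVA, and Renca had 2 higher and 3 lower. Those higher in Renca were Slpi, for a secreted protease inhibitor that epithelium also makes, at 706 ± 195 TPM (4.47) against 154 in EMT6, and Msrb1 at 162 (1.52). Ifitm1 was at 217 TPM in MC38 and 3.27 in Renca (-3.06), and Acod1, for the enzyme that makes itaconate, at 65.7 in MC38OVA, 41.2 in EMT6 and 0.382 in Renca (-3.17). Monocyte genes were high in the MC38 lines, with 4 of 4 called in MC38OVA, 3 of 4 in MC38 and, in EMT6, 1 higher and 1 lower. Ly6c2 was at 675 ± 355 TPM in MC38OVA, 289 in MC38 and 48.7 in EMT6. Of 6 macrophage genes 1 rose in EMT6, where C1qa was at 475 TPM against 540 in Renca. The leukocyte genes were called higher in 9 of 10 cases in MC38OVA, 3 of 10 in EMT6 and 1 of 10 in MC38, and lower in 10 of 10 in B16F1 and 9 of 10 in B16F10. The exception in B16F10, Arhgdib, had its highest line mean there, at 396 TPM, above B16F1 by 3.11 (log2, limma adjusted p = 7.45e-10). It counts toward the leukocyte score of B16F10. The part of the overall leukocyte content in the member levels was not tested. With the leukocyte score subtracted from each library, 25 of 43 single calls were kept, 11 were lost and 7 changed sign.

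**Figure D5:**
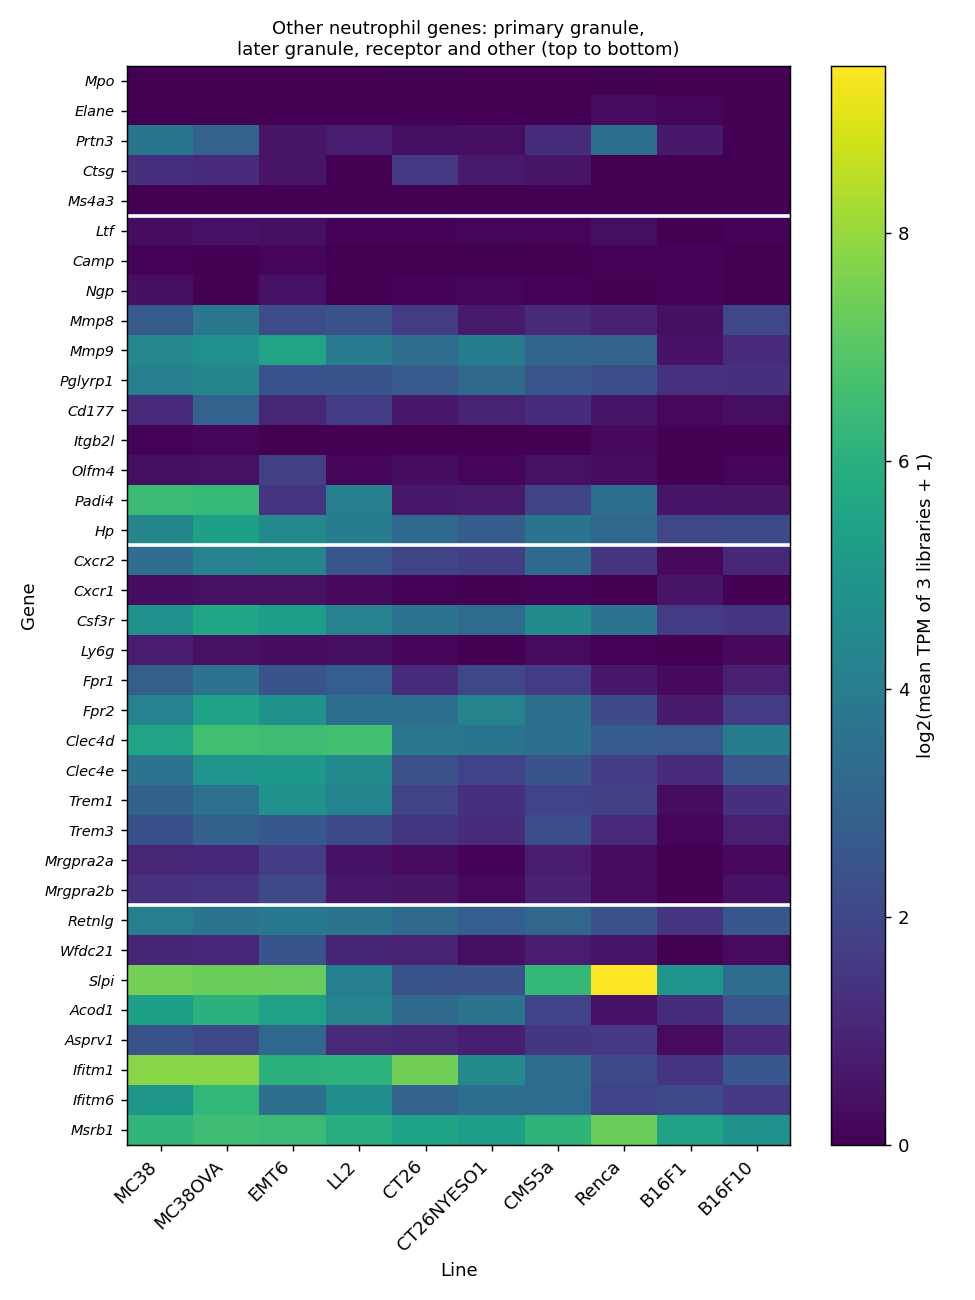
Heat map of log2(mean TPM of 3 libraries + 1) of 36 further neutrophil genes by line, in rows grouped as primary granule, later granule, receptor and other. Padi4, in the later granule rows though it encodes no granule protein, is high in MC38 and MC38OVA (86.1 and 79.5 TPM) and low in EMT6 (1.74). Receptor genes are high in MC38OVA and EMT6.

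After scaling to the leukocyte score, EMT6 kept its higher calls except Il1r2 (0.93), and Renca kept Lcn2, Stfa3 and G0s2, with Hdc at -0.99. In MC38OVA, the line with the highest score, S100a8, S100a9, Stfa2l1 and Lcn2 turned to -0.11, -0.22, -0.20 and -0.38, none of them called. In B16F10, S100a8, Il1r2 and Hdc turned to 0.40, 0.24 and 0.093, and S100a9 and Lcn2 shrank to -0.26 and -0.13, so that none of the 5 lower calls was left. In B16F1, Stfa2l1 (-0.78) and Il1r2 (-0.67) were no longer called, while S100a8, S100a9, Lcn2 and Hdc kept their calls at a smaller size, and in MC38 S100a8 (1.03), S100a9 (1.12) and Stfa2l1 (0.85) were not.

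The 3 pairs of related lines were compared to ask whether an added antigen or a subline went with other levels. Between MC38OVA and MC38, 0 of 9 tested members were called by limma, where 1.31% of all genes were, and 0 had an unadjusted p under 0.05. The values furthest from 0 included Il1r2 at 0.56 and Hdc at 0.56, and adjusted p was 0.751 or more. Between CT26NYESO1 and CT26, Lcn2 fell by 1.73 ± 0.31 (limma adjusted p = 0.000589), from 13.1, 9.59 and 9.72 TPM in CT26 to 2.23, 3.69 and 1.93, with no overlap, and 1.89% of all genes were lower. Without replicate 3 of every line the Lcn2 value was -1.65 and missed the threshold (adjusted p = 0.0769). After subtracting the leukocyte score it was -1.72 (adjusted p = 0.101). G0s2 had -1.30 ± 0.46 in this pair (adjusted p = 0.128).

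Between B16F10 and B16F1, 4 of 9 members were called higher, where 4.53% of all genes were. S100a8 rose by 2.64 ± 0.59 (limma adjusted p = 0.000725), S100a9 by 3.08 ± 0.73 (adjusted p = 0.00124), Stfa2l1 by 1.36 ± 0.52 (adjusted p = 0.0391) and Hdc by 1.06 ± 0.43 (adjusted p = 0.0499). These values rest in part on B16F10 replicate 2, the library with 132 TPM of S100a9. Without it they were 1.52 (adjusted p = 0.0109), 1.88 (adjusted p = 0.024), 0.71 (adjusted p = 0.323) and 0.41 (adjusted p = 0.474), so the first 2 remained called and the last 2 did not. Without replicate 3 of every line S100a9 was not called either (2.60, adjusted p = 0.058). Without B16F10 replicate 3 the Stfa2l1 and Hdc values were 1.29 (adjusted p = 0.0971) and 1.08 (adjusted p = 0.0905), and without any single B16F1 library neither was called. Hdc also lost its call, which lay at the threshold, on leaving out most single libraries of other lines, with adjusted p up to 0.0559. Ranges of S100a9 overlapped between the sublines, at 0.774 to 6.00 TPM against 3.05 to 132.

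The difference between the antigen pairs, (MC38OVA against MC38) less (CT26NYESO1 against CT26), was called for 0 of 9 members by limma (2.62% of all genes), with 2 at an unadjusted p under 0.05. Lcn2 had 1.43 ± 0.44 (adjusted p = 0.0747) and Hdc 1.44 (adjusted p = 0.24). Lcn2 passed the threshold when MC38OVA replicate 2 (1.75, adjusted p = 0.0316), LL2 replicate 1 (1.43, adjusted p = 0.0481) or replicate 2 of every line (2.17, adjusted p = 0.034) was left out.

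The members did not vary as one block. Pearson correlations of log2(TPM + 1) are given over the 30 libraries as a description, since libraries share their line and leukocyte content, and a second value after subtracting line means shows what is left among libraries of a line. S100a8 and S100a9 ran together at 0.984 (0.955 within lines), and S100a8 and Stfa2l1 at 0.915. Il1r2 and Hdc stood at 0.915 (0.804). Lcn2 and Stfa3 were related at 0.702 over all libraries, which rested on the lines, as within lines the value was 0.065. Lcn2 and G0s2 stood at 0.018, and Stfa3 and S100a9 at 0.141.

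The genes outside the members with the most similar profile differed for each. S100a9 was most like Il1b (0.929, 0.812 within lines), Cxcr2, for the chemokine receptor that draws neutrophils into tissue (0.885, 0.71), and Plekha2 (0.862, 0.122). Stfa2l1 was most like its neighbour Cstdc4 (0.948, 0.722), Mrgpra2b (0.941, 0.79) and Asprv1 (0.931, 0.824). Hdc was most like Cxcr2 (0.946, 0.786), Osm (0.941, 0.823) and Il1f9 (0.938, 0.654), the last 2 encoding cytokines. For these 3 members most of the likeness was thus seen within lines too. Il1r2 was most like Cd1d1 (0.918, 0.276), Adgrg3 (0.917, 0.535) and Hp (0.915, 0.785). For G0s2 the closest were Arhgap8 (0.852, 0.617), Msx3 (0.835, 0.128) and Nhs (0.819, 0.085). For Lcn2 they were Cep295nl (0.919, 0.081), Slc4a11 (0.912, -0.166) and Stap2 (0.901, 0.003), which shared its high level in Renca and did not follow it among libraries of a line.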

How the data were processed

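Deposited TPM values of 30 libraries, made by the authors, were used as given. The submitters' processing notes name Trim Galore 0.6.5, STAR 2.7.3a, StringTie 2.1.2 and the build mm10. The annotation and the use of strand in counting are not given in the sources used here. Libraries were grouped by line from their titles. TPM keep no read counts, so depth is unknown and no interval for a single value can be given. Columns and symbols were checked, with 0 unmatched columns, 0 duplicated symbols and 0 identical libraries.

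The 17944 genes that reached 1 TPM in 3 or more libraries were analysed as log2(TPM + 1), a scale that understates changes of low genes. limma 3.58.1 (R 4.3.3, variance trend, residual df of 20) was used for an F test, each line against the other 9, 3 pairs and the difference of the antigen pairs, adjusted over all genes within each comparison. SE are of the fit and SD over 3 libraries. The procedure was tested on simulated data. Alternatives were other scaling, pseudocount and filter, a replicate block, values relative to leukocyte genes, fewer lines, and single libraries left out. Python 3.11.15, numpy 2.4.6, pandas 2.3.3 and matplotlib 3.10.9 were used.

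The members and 19 gene lists (133 entries, 127 of them found by symbol) were chosen with earlier results of these data known. Genes open to naming were all members, the 4 most abundant tested genes of each list, of which those that add to a result are printed, and the 3 genes most like each of 6 members, leaving out predicted genes. Mmp8, Olfm4, Mcpt8, Kit, Fpr1, Trem1, Trem3, Mrgpra2a, Krt19 and further list genes named at or near 0 were chosen after their values were seen. So were the cystatin relatives Csta2, Csta3 and Cstdc6, and the S100 genes called in EMT6.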

Additional observations from a re-analysis of the deposited data

How the results depend on the processing

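The counts were 9 members over the lines, 21 member and line combinations higher and 17 lower, 7 members in EMT6, 5 in the pairs and 0 in the antigen difference. The count in the pairs was 3 with no filter, and that of higher combinations 13 without B16F1 and B16F10, an alternative chosen after seeing the data. With single libraries or replicate numbers left out, these counts ranged over 8 to 9, 16 to 22, 15 to 19, 6 to 7, 1 to 6 and 0 to 1. The 8 and the 6 come from Stfa2, which then was not tested, and the 1 in the pairs from leaving out replicate 3. Relative to the leukocyte score, values changed sign for S100a8 (-0.11), S100a9 (-0.22), Stfa2l1 (-0.20) and Lcn2 (-0.38) in MC38OVA and for S100a8 (0.40), Il1r2 (0.24) and Hdc (0.093) in B16F10. None of these was called in the new direction, and the cause was not tested. Of 43 single calls 40 held under median-ratio scaling, 42 without mitochondrial and haemoglobin genes, 42 with a pseudocount of 0.1 and 39 with no filter. Of 1413 values with libraries left out, 1331 kept their call, 82 lost it and 0 reversed. Median-ratio scaling moved the median of all genes by 0.339 in B16F10, 0.215 in B16F10 against B16F1, and between -0.126 and 0.125 elsewhere. Same-numbered libraries of different lines did not deviate together (mean r of 0.0043 over 135 pairs, lowest -0.47). With the replicate block 4 calls were made in the pairs, 21 higher and 17 lower, and Hdc in B16F10 against B16F1 had an adjusted p of 0.0551 by limma. Unknown depth limits what can be said of levels near 0.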

Other observations

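The relatives of the stefins around the cluster showed 2 profiles. Of 6 tested cystatin relatives, 4 were called higher in EMT6, where Cstdc4 was at 26.4 ± 8.43 TPM (SD, n = 3; log2 fold change 3.18 ± 0.34 SE, limma), Cstdc5 at 7.54 ± 1.10 (2.50), Cstdc6 at 5.86 ± 0.980 (2.56) and Csta3 at 2.40 (1.60). Csta3 and Cstdc6 passed the filter only through their EMT6 libraries, so their calls there add nothing to that count. Csta2 was called higher in both MC38 lines instead, at 7.80 ± 1.37 TPM in MC38 (2.62) and 7.24 ± 1.66 in MC38OVA (2.51), with 0.537 in LL2, and was listed at 0 in EMT6 and Renca. Cstdc6, in turn, was listed at 0 in MC38, MC38OVA, LL2, CT26NYESO1 and both B16 lines, and was at 1.02 in Renca, 0.593 in CT26 and 0.191 in CMS5a. Which host strain carried which line is not in the labels, so strain and line cannot be told apart in this split, and near-identical copies may share reads. Cstb, which encodes the widely expressed stefin B, was highest in EMT6 with 0.80, which was not called. The sum over the whole cluster was 77.5 to 111 TPM in EMT6, 25.7 to 32.7 in MC38, 20.1 to 39.4 in MC38OVA, 10.4 to 25.9 in Renca and 0.390 to 0.481 in B16F1.

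Other S100 genes rose in EMT6 in 6 of 12 tested cases and fell in 1, S100b (-1.39). S100b passed the filter only through the B16 lines, with means of 146 TPM in B16F1 and 80.1 in B16F10 against 0.256 in EMT6. Its call thus adds nothing about EMT6. The values of the 6 that rose were 2.19 for S100a4 (4165 TPM), 1.05 for S100a6, 1.60 for S100a10 (1024 TPM), 1.48 for S100a11 (1991 TPM), 1.43 for S100a16 and 1.71 for S100a7a. The same 6 genes were called higher in CT26, by 2.91, 1.76, 1.11, 1.38, 1.10 and 2.01 in this order, where neither calprotectin gene was called. The CT26 means of S100a4 (6578 TPM), S100a6 (3428 against 2226) and S100a7a (10.6 against 8.85) were above those of EMT6. Of 6 tested genes that steer granulocyte production, 2 rose in EMT6, Cebpa by 1.37 to 24.8 TPM and Csf3, which encodes G-CSF, by 1.74 to 3.23 TPM, and 2 in Renca, Cebpa by 2.68 to 55.4 ± 2.69 TPM and Cebpb by 1.97 to 123 ± 72.5 TPM. Csf3 passed the filter only through its EMT6 libraries, so its call adds nothing to the EMT6 count. Spi1 was highest in MC38OVA at 89.7 TPM and Gfi1 in LL2 at 6.99. Of 5 tested keratinocyte genes 2 rose in EMT6, where Trp63 was at 13.6 ± 2.50 TPM and the list's sum at 16.3 to 18.4 TPM. The other tested genes averaged 2.91 (Krt14), 0.473 (Krt5), 0.239 (Krtdap) and 0.238 (Krt10) TPM in EMT6. Krt5, Krt1 and Lor reached 2.88, 0.586 and 0.229 TPM at most in any library, each in Renca.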
